A study of Macaca mulatta with 24 samples.

Results

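A set of genes of absorptive enterocytes and of circulating lipoproteins were followed in the colon of irradiated rhesus macaques. They were ALB, APOA1, APOA4, APOB, APOC3, FABP1, FABP2, SI, MEP1A and ANPEP, taken by gene symbol from the list of probes on the array. Of these 10 symbols, 7 were found, with 11 probes between them, among 14491 named genes on the array. APOA1, APOA4 and SI had no probe under their symbols and were not analysed here. FABP2 had 1 probe, which stayed within background on all 24 arrays, so 6 genes with 9 probes passed the filter on dim probes and were tested. The members were chosen by their measured levels in these arrays, after ALB and other small intestinal genes had stood out in the irradiated colon on day 7 against control and against day 4. All values for day 7 are therefore given as a description, and tests are given for days 4 and 12, for the dose comparisons and for day 12 against day 4. The control and day 4 arrays were also used in that choice. Tests that include them, day 12 against day 4 among them, are therefore not independent of it.

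Each array held RNA extracted from whole colon tissue of 1 animal, a young adult male. Total-body irradiation (TBI) was a single dose of cobalt-60 gamma rays, 6.7 or 7.4 Gy. There were 4 animals in the unirradiated control group, 4 in each dose group on days 4 and 7, and 2 in each dose group on day 12. The treatment text of the labels names a later last day than the sample labels do, and day 12 of the sample labels was used. The same 4 controls, labelled as day 4, served every comparison against control, so these comparisons share their reference. Whole tissue was used, so fewer cells of a type and less RNA per cell cannot be told apart.

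Enterocytes of the small intestine take up digested fat, carry fatty acids with the binding proteins FABP1 and FABP2, and ship the fat out as chylomicrons, particles built around apolipoprotein B (APOB) by the transfer protein MTTP. APOA1, APOA4 and APOC3 ride on the same particles, and the liver makes most of these apolipoproteins too, along with albumin (ALB). The brush border of these cells carries digestive enzymes such as sucrase-isomaltase (SI), meprin A alpha (MEP1A) and aminopeptidase N (ANPEP). FABP1 and MEP1A are also known from the epithelium of the colon, so the list is not restricted to the small bowel.

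Values are log2 signals, that is, the log2 processed intensity minus that of the 75th percentile of the same array. On each array 66.7% to 85.0% of probes exceeded background clearly, no probe was saturated, and the 75th percentile lay between 550.7 and 963.6 intensity units. FABP1, APOC3, MEP1A and ANPEP were well above background on 24 of 24 arrays. APOB was above it on 19 and ALB on 16, and both were above it on only 1 of the 4 control arrays. FABP2, among the more restricted small bowel genes of the list, lay between 1 and 11 intensity units throughout, and GATA4, a transcription factor of the proximal small intestine, was above background on 1 array of 24. The label of small intestinal enterocyte genes is thus carried here by genes that the colon also expresses and by dim probes.

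FABP1, the liver-type fatty acid binding protein, was lower on day 4 and back near the control level afterwards. Its log2 signal in the control animals was 7.20, 6.79, 7.25 and 7.30. On day 4 it was 6.61, 5.98, 6.48 and 6.28 after 6.7-Gy TBI and 6.10, 6.51, 5.33 and 6.18 after 7.4-Gy TBI. All 8 irradiated animals of day 4 lay below all 4 controls. On day 7 the values were 7.37, 6.59, 7.38 and 7.11 at 6.7 Gy and 7.15, 7.37, 7.12 and 6.57 at 7.4 Gy, and both groups overlapped the controls. On day 12 they were 7.32 and 7.62 at 6.7 Gy and 7.47 and 7.16 at 7.4 Gy.

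Relative to control, FABP1 fell by 1.11 ± 0.24 (SE, n = 4) on the log2 scale on day 4 after 7.4 Gy, a 2.15-fold decrease (limma adjusted p = 0.00324). Of all tested genes, 8.23% were called in that comparison. After 6.7 Gy the log2 change was -0.80 ± 0.24 (n = 4, limma adjusted p = 0.0392), which passed the p threshold and not the 2-fold threshold of a call. From day 4 to day 12, over both doses, FABP1 rose 2.31-fold (log2 1.21 ± 0.21, n = 8 and 4, limma adjusted p = 0.000432), and the call was kept under all 38 alternatives tried. Array position was not among these 38, since all day 12 arrays were at position 4 and all day 4 arrays at positions 1 and 2, so day and array position cannot be told apart in any gene's change from day 4 to day 12. The call on day 4 was lost under 5 of 40 alternatives. One was a block for array position, since all controls were at position 1 and all 7.4-Gy day 4 arrays at position 2; the log2 change was then -1.20 with an adjusted p of 0.0783 by limma. Another was the omission of 7.4 Gy day 4 replicate 3, the lowest animal, which left -0.87. Scaling to spike-in controls raised the median change of all genes by 0.27 in this comparison and gave -0.84.

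The colon's own surface cell genes moved with FABP1 on day 4. On that day 2.36% of all tested genes were called higher and 1.89% lower at 6.7 Gy, and 4.24% and 3.99% at 7.4 Gy. Of 15 tested genes of mature colonocytes, 8 fell and none rose at 6.7 Gy, and 11 fell and 1 rose at 7.4 Gy. Their summed linear level, relative to the 75th percentile, ranged from 447 to 759 in controls, from 97.2 to 281 at 6.7 Gy and from 37.7 to 233 at 7.4 Gy on day 4. The sum of 9 general epithelial genes ranged from 405 to 460 in controls, from 204 to 337 at 6.7 Gy and from 239 to 318 at 7.4 Gy on day 4. Among 6 smooth muscle genes none was called on day 4, and their sum ranged from 585 to 928 in controls, 264 to 924 at 6.7 Gy and 603 to 757 at 7.4 Gy. The part of these shifts in the fall of FABP1 was not tested.

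APOC3, an inhibitor of triglyceride breakdown on lipoproteins, was highest in the 4 animals of day 12. Its log2 signal was -3.68, -4.14, -4.21 and -3.96 in controls. It was -3.72, -4.30, -4.16 and -4.80 on day 4 after 6.7 Gy and -5.04, -4.19, -4.36 and -5.12 after 7.4 Gy. On day 7 it was -3.50, -4.37, -4.26 and -3.96 at 6.7 Gy and -4.20, -3.80, -3.58 and -4.03 at 7.4 Gy, close to the controls. On day 12 the values were -2.50 and -2.49 at 6.7 Gy and -2.46 and -3.35 at 7.4 Gy, above every animal of the other groups.

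Between days 4 and 12 APOC3 rose 3.38-fold over both doses (log2 1.76 ± 0.23, n = 8 and 4, limma adjusted p = 5.33e-05), and all 38 alternatives kept the call, none of them with array position as a block. Against the controls, the day 12 levels were 2.83-fold at 6.7 Gy (log2 1.50 ± 0.32, n = 2) and 2.13-fold at 7.4 Gy (1.09 ± 0.32, n = 2). Neither passed the test (limma adjusted p = 0.291 and 0.364), with the exception of spike-in scaling at 6.7 Gy, which gave 1.74 with a limma adjusted p of 0.0355. All day 12 arrays were at position 4 and all controls at position 1, so day 12 and array position cannot be told apart in these comparisons. On day 4 the log2 change was -0.25 ± 0.26 (limma adjusted p = 0.602) and -0.68 ± 0.26 (0.0759) at 6.7 and 7.4 Gy.

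APOB, the scaffold protein of chylomicrons, was dim, with higher signals on days 4 and 7 than in the controls or on day 12. Control signals were -5.21, -5.91, -5.80 and -4.89. Those on day 4 were -3.95, -5.47, -2.98 and -2.19 at 6.7 Gy and -4.69, -3.20, -3.66 and -3.97 at 7.4 Gy. All 4 animals at 7.4 Gy and 3 of 4 at 6.7 Gy exceeded every control. On day 7 the signals were -3.87, -4.17, -3.88 and -4.67 at 6.7 Gy and -3.71, -2.32, -5.09 and -3.82 at 7.4 Gy. On day 12 they lay within or just below the range of the controls, at -6.05 and -5.39 for 6.7 Gy and -6.13 and -5.48 for 7.4 Gy.

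The fall of APOB from day 4 to day 12 passed the test: it was 4.00-fold over both doses (log2 -2.00 ± 0.49, n = 8 and 4, limma adjusted p = 0.00664). With normexp background correction, whose offset was 50 intensity units while this probe read 9.49 to 203 units, the change was -0.16 and the call was lost. The differences from control on day 4 were of similar size and just missed the threshold, at log2 1.80 ± 0.57 (n = 4, limma adjusted p = 0.0509) for 6.7 Gy and 1.57 ± 0.57 (0.0574) for 7.4 Gy. They were called under 6 and 7 of 40 alternatives. At 6.7 Gy the scan days differed, with 2.98 on scan day 1 and 0.63 on scan day 2 (2 animals against 2 controls on each). The 2 animals of scan day 1 were also the only ones of that group at array position 2. With array position as a block the values were 0.74 and -0.55, so the direction at 7.4 Gy turned. The second APOB probe stayed within background on every array.

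**Figure D1:**
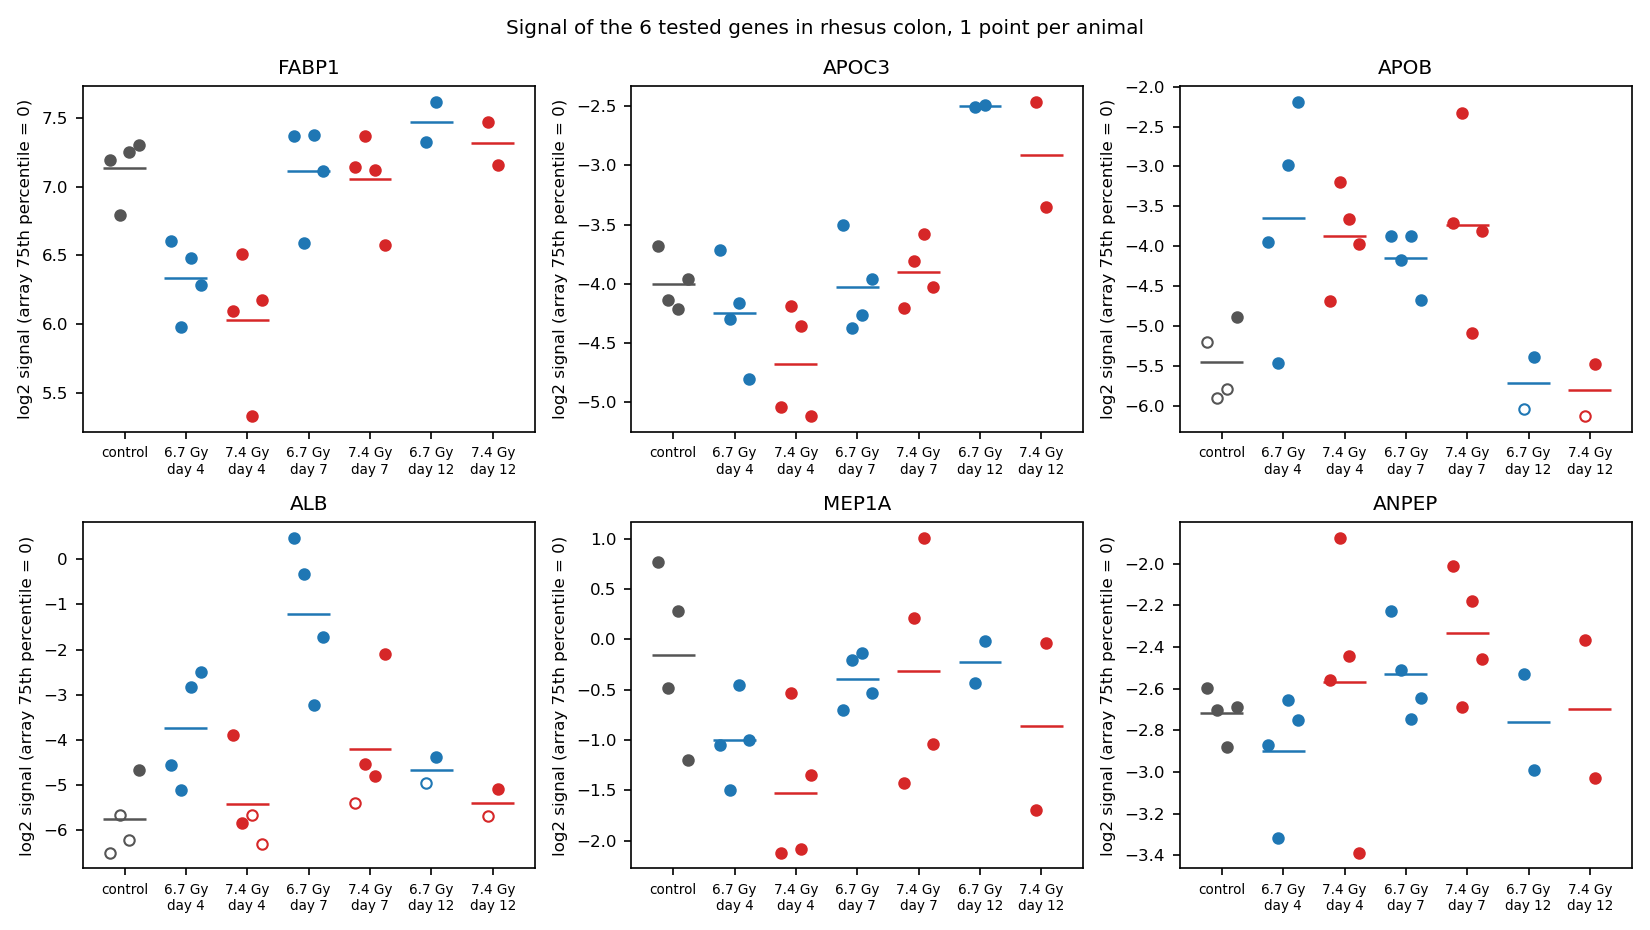
Log2 signal relative to the 75th percentile of the array (vertical axis) by group (horizontal axis) for FABP1, APOC3, APOB, ALB, MEP1A and ANPEP. Each point is 1 animal, filled where the probe was well above background and open where it was not, and bars are group means; all 8 day 4 animals lie below the controls for FABP1, and all 4 day 12 animals lie above all others for APOC3.

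ALB, the main plasma protein made by the liver, was the gene that led to the list. Its brightest probe read -6.49, -5.66, -6.21 and -4.66 in controls. On day 4 it read -4.56, -5.10, -2.83 and -2.50 at 6.7 Gy and -3.89, -5.83, -5.67 and -6.31 at 7.4 Gy. On day 7 the signals were 0.46, -0.33, -3.23 and -1.73 at 6.7 Gy, all above every control, and -5.39, -4.52, -4.80 and -2.11 at 7.4 Gy. On day 12 they were -4.95 and -4.38 at 6.7 Gy and -5.69 and -5.08 at 7.4 Gy. In intensity units, the 6.7-Gy animals of day 7 spanned 80 to 1094, while controls spanned 6 to 27.

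As a description of the comparison that chose it, ALB on day 7 stood 23.4-fold above control at 6.7 Gy (log2 4.55 ± 0.80, n = 4), with 1 of 4 controls above background, and 2.93-fold above it at 7.4 Gy (1.55 ± 0.80, n = 4). On day 4, ALB differed from control by log2 2.01 ± 0.80 at 6.7 Gy (n = 4, limma adjusted p = 0.115) and 0.33 ± 0.80 at 7.4 Gy (0.808), and neither passed the test. On day 12 the differences were 1.09 ± 0.98 and 0.37 ± 0.98 (n = 2 each, limma adjusted p = 0.878 and 0.979). From day 4 to day 12 ALB changed by -0.44 ± 0.69 (adjusted p = 0.678 by limma).

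Scanning was spread over 2 days, and 5 of the 7 highest ALB signals came from the first of them. These were 6.7 Gy day 7 replicates 1 and 2, 6.7 Gy day 4 replicates 3 and 4, and 7.4 Gy day 7 replicate 4. The other 2, 6.7 Gy day 7 replicates 3 and 4, were scanned on the second. Scan day 1 also held control replicates 1 and 2 and 7.4 Gy day 7 replicate 3, all of them low. Within scan day 1 the 6.7-Gy day 7 mean was 6.15 log2 units above its controls, and within scan day 2 it was 2.95 above them (2 animals against 2 in each). For 6.7 Gy on day 4 the same differences were 3.41 and 0.60, and for 7.4 Gy on day 7 they were 2.62 and 0.48. For 6.7 Gy on day 4 and 7.4 Gy on day 7, array position differed between the animals of scan days 1 and 2. Scan day and array position cannot be told apart there. The animals of 6.7 Gy on day 7 were all at array position 3. The part of the scan day in these levels was not tested.

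Of 16 tested liver genes, most of them for plasma proteins, none was called on day 7 at either dose. Over all genes 0.386% and 0.498% were called, so a count of 0 in so short a list does not set ALB apart. CPS1 of this list was not above background in any control and on day 7 exceeded it by at least 7.96-fold at 6.7 Gy and at least 3.15-fold at 7.4 Gy (limma adjusted p = 0.122 and 0.415). By its second probe the bounds were 5.97-fold and 2.07-fold (0.113 and 0.363). The summed level of the 16 liver genes ranged from 4.08 to 5.56 in controls and from 3.45 to 4.88 at 6.7 Gy on day 7. FGB and FGG, the fibrinogen beta and gamma chains, and TAT, a liver enzyme of tyrosine breakdown, were not well above background on any of the 24 arrays, and FGA, the fibrinogen alpha chain, was above it on none of the 4 arrays of that group.

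The other ALB probes were dimmer and were not above background in any control. Probe A_01_P1755066 correlated with the brightest probe over the 24 arrays with r = 0.91, and on day 7 at 6.7 Gy it lay at least 8.40-fold above control, a bound set by the lowest signals well above background. Probe A_01_P1793796 correlated less closely, with r = 0.54, and its bound for the same group was at least 1.87-fold. It was highest in 7.4 Gy day 4 replicate 3, at -2.85, where the brightest probe read -5.67.

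**Figure D2:**
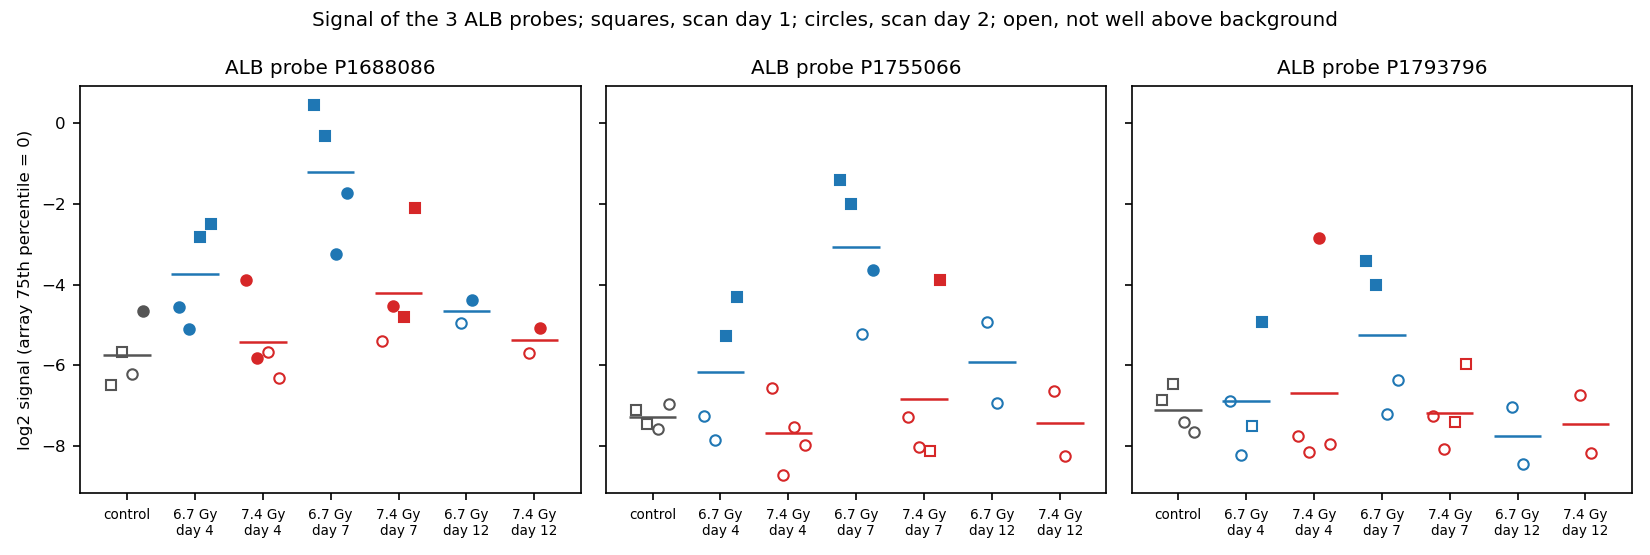
Log2 signal relative to the 75th percentile of the array (vertical axis) by group (horizontal axis) for the 3 ALB probes, 1 point per animal, with squares for scan day 1, circles for scan day 2, open points for arrays not well above background and bars for group means. The 2 highest animals in the left panel, at 0.46 and -0.33, are the 6.7-Gy day 7 animals of scan day 1.

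MEP1A, a zinc protease of the brush border, gave lower means on day 4, without passing the test. Control signals ranged from -1.19 to 0.78. They ranged from -1.50 to -0.46 at 6.7 Gy and from -2.12 to -0.54 at 7.4 Gy on day 4, so both groups overlapped the controls. The log2 changes were -0.85 ± 0.51 (n = 4, limma adjusted p = 0.311) and -1.37 ± 0.51 (0.0636). The second MEP1A probe followed the first with r = 0.98 over 24 arrays, and changed by -0.98 and -1.76. On day 12 the changes were -0.07 ± 0.62 and -0.71 ± 0.62 (n = 2 each, limma adjusted p = 0.991 and 0.892).

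ANPEP, which trims amino acids from peptides at the cell surface, stayed closest to control among the 6 genes on days 4 and 12. Its control signals ranged from -2.88 to -2.60, and over the 20 irradiated animals it ranged from -3.39 to -1.88. The log2 changes from control lay between -0.18 and 0.15 on day 4 and between -0.04 and 0.02 on day 12, with limma adjusted p-values from 0.694 to 0.999. From day 4 to day 12 it changed by 0.00 ± 0.22.

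**Figure D3:**
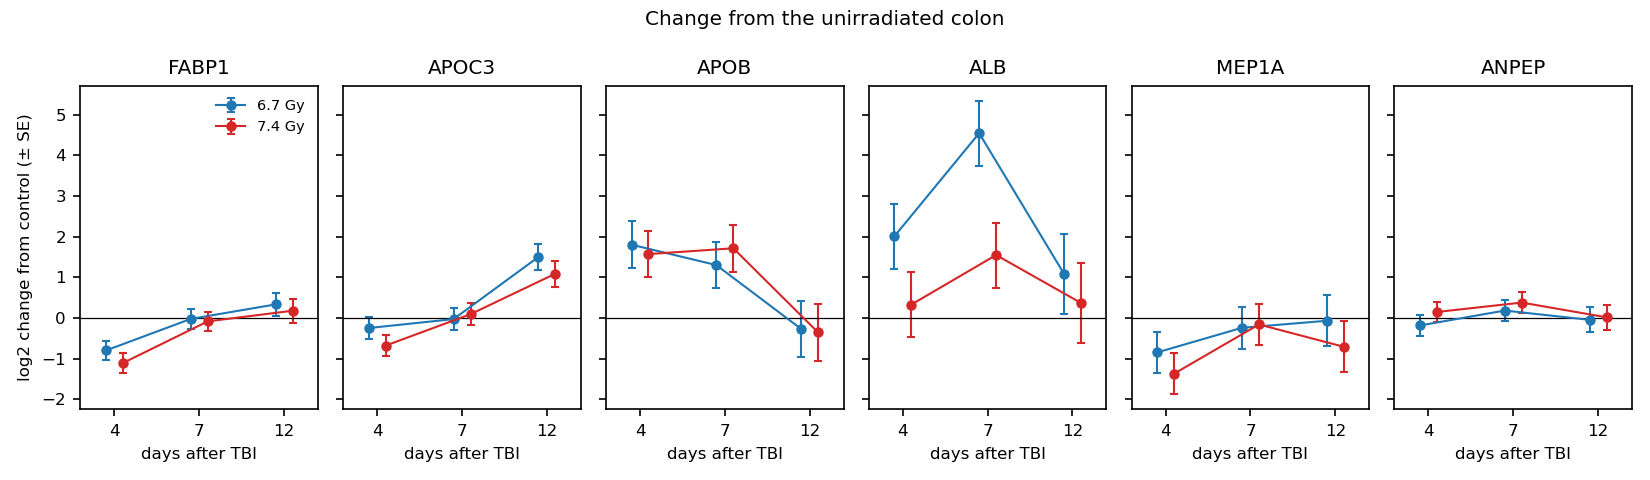
Log2 change from the unirradiated controls (vertical axis, points with bars of 1 SE from limma) by day after TBI (horizontal axis, in days) for the 6 tested genes, with 6.7 Gy in blue and 7.4 Gy in red. FABP1 falls by 0.80 and 1.11 on day 4, APOC3 lies at 1.50 and 1.09 on day 12, and ALB reaches 4.55 on day 7 at 6.7 Gy; n is 4 per group on days 4 and 7 and 2 on day 12.

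Counted together, the genes did not move as a block. On day 4, limma called 0 of the 6 at 6.7 Gy, where 4.24% of all 13457 tested genes were called (2.36% higher and 1.89% lower), and 3 of the 6 had an unadjusted p under 0.05. At 7.4 Gy it called 1 of 6, FABP1, against 8.23% of all genes (4.24% higher and 3.99% lower), and 4 of the 6 had an unadjusted p under 0.05. On day 12 it called 0 of 6 at each dose against 0.0149% of all genes (at 7.4 Gy 0.00743% in each direction), with 1 gene at an unadjusted p under 0.05 at each dose, APOC3. The share of all genes at that unadjusted threshold is not given, so nothing is read from the unadjusted counts. Day 12 against day 4 gave 3 calls of 6, FABP1 and APOC3 higher and APOB lower, against 7.65% of all genes (4.13% higher and 3.51% lower). The methods' t-test called 0 of 6 against control on each day and at each dose, and 3 of 6 for day 12 against day 4. On day 7 the calls were 1 of 6 at 6.7 Gy (ALB) and 0 of 6 at 7.4 Gy, with 0.386% (0.163% higher) and 0.498% of all genes called. Day 7 against day 4 gave 1 of 6, again ALB, against 5.05% of all genes (2.65% higher and 2.39% lower). Nothing is read from the day 7 counts, since that day was used in the choice. The other counts include control or day 4 arrays, which were also part of the choice, so they are not independent of it. The median log2 change of the 6 was -0.21 and -0.26 on day 4 at 6.7 and 7.4 Gy, beside -0.04 and -0.02 over all genes. From day 4 to day 12 it was 0.36, beside 0.05 over all genes.

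The doses were compared by test on days 4 and 12. Limma called 0 of 6 genes between 7.4 and 6.7 Gy on day 4 and on day 12, and 0% of all genes on each of these days. At an unadjusted p under 0.05 the count was 1 of 6 on day 4, ALB, and 0 of 6 on day 12, again without a share over all genes. By the methods' t-test, likewise adjusted, 0 of 6 were called on both days. The largest dose differences on day 4 were those of ALB, -1.68 ± 0.80, MEP1A, -0.52 ± 0.51, and APOC3, -0.43 ± 0.26, with limma adjusted p of 0.804, 0.932 and 0.878. On day 7, given as a description, ALB was 3.00 ± 0.80 log2 units lower at 7.4 Gy than at 6.7 Gy.

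By mean level the 7 groups stood in a different order for each gene, and neighbours mostly overlapped. For FABP1 the order ran from 6.7 Gy day 12 through 7.4 Gy day 12, control and both day 7 groups down to 6.7 Gy day 4 and 7.4 Gy day 4, and each group overlapped the next. For APOC3 the only gap between neighbours was between the day 12 groups and 7.4 Gy day 7. For APOB it was between 6.7 Gy day 7 and the control below it. For ALB the only gap was between 6.7 Gy day 12 and 7.4 Gy day 12, with 2 animals each, while 6.7 Gy day 7, the highest group, overlapped 6.7 Gy day 4. MEP1A and ANPEP had none.

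Other genes of fat absorption, from a list of 20 of which 16 were tested, moved in both directions on day 4. At 7.4 Gy, 2 rose and 3 fell, and at 6.7 Gy 1 rose and none fell. Over all genes, 4.24% were called higher and 3.99% lower at 7.4 Gy, and 2.36% and 1.89% at 6.7 Gy. MTTP, the partner of APOB in chylomicron assembly, was not above background in any control and on all 4 arrays at 7.4 Gy, where it was at least 2.74-fold higher (limma adjusted p = 0.00842). In the 6.7-Gy group of day 4 it exceeded background on 2 of 4 arrays, by at least 1.52-fold over control, and did not pass the test (0.0952). PLIN2, a coat protein of lipid droplets, rose 2.25-fold and 2.87-fold on day 4 (limma adjusted p = 0.0353 and 0.00437) and fell 2.88-fold by day 12 (0.00116). Another PLIN2 probe was not called at 6.7 Gy on day 4 (log2 0.95) or from day 4 to day 12 (-0.99). MOGAT2 and MOGAT3, which rebuild triglyceride from absorbed monoglyceride, fell 4.06-fold and 3.59-fold on day 4 at 7.4 Gy (limma adjusted p = 0.00547 and 0.000314). By day 12 they had risen 4.50-fold and 2.53-fold (0.000908 each). With array position as a block the day 4 calls of MTTP and PLIN2 were lost. Those of MOGAT2 and MOGAT3 were lost once scan day entered the fit as well. Without the arrays of scan day 1, the calls of MTTP, MOGAT2 and, at 6.7 Gy, PLIN2 were also lost. Normexp background correction ended that of MTTP too.

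Of 9 tested brush border hydrolases, 1 rose and 1 fell on day 4 at each dose. The called shares of all genes were 2.36% higher and 1.89% lower at 6.7 Gy, and 4.24% and 3.99% at 7.4 Gy. Nothing is read from counts of 1 in so short a list. XPNPEP2, an aminopeptidase that acts next to proline, fell 3.37-fold and 6.52-fold on day 4 (limma adjusted p = 0.026 and 0.000758) and rose 4.49-fold by day 12 (0.00105). The 6.7-Gy call of XPNPEP2 was lost with array position as a block, and its second probe was not called there (log2 -1.55, limma adjusted p = 0.0678). LCT, the lactase of the small bowel, did not pass the test in any comparison, with log2 changes from control between -0.33 and 0.26.

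Among 13 tested nutrient transporters, 2 rose at 6.7 Gy and 3 rose at 7.4 Gy on day 4, and none fell. Across all genes 2.36% and 4.24% were called higher there, and 1.89% and 3.99% lower. SLC5A1, the sodium-glucose cotransporter of the brush border, rose 4.23-fold and 3.85-fold (limma adjusted p = 0.00477 and 0.00284). Its signal ranged from -4.34 to -3.30 in controls, from -2.77 to -1.30 at 6.7 Gy and from -2.06 to -1.65 at 7.4 Gy, without overlap. It fell 2.74-fold from day 4 to day 12 (0.006). SLC1A1, which imports glutamate, rose 2.38-fold and 3.60-fold (limma adjusted p = 0.0353 and 0.00171), and the fructose transporter SLC2A5 rose 2.12-fold at 7.4 Gy (0.0396). With array position as a block, all of these day 4 calls were lost. The second SLC5A1 probe changed by 1.11 and 0.91 on day 4 and was not called there. SLC7A9, a subunit of a transporter for cystine and basic amino acids, rose 2.16-fold from day 4 to day 12 (0.00822).

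Among 16 tested genes of liver, ALB's tissue of origin, 1 fell on day 4 at 6.7 Gy, and 1 rose and 2 fell at 7.4 Gy. Most of the 16 code for plasma proteins. The shares of all genes called lower were 1.89% and 3.99%, and those called higher 2.36% and 4.24%. TTR, the thyroxine carrier transthyretin, fell 3.71-fold at 7.4 Gy (limma adjusted p = 0.0261) and was 4.08-fold higher on day 12 than on day 4 (0.0064). SERPINC1, the clotting inhibitor antithrombin, fell 2.91-fold and 3.13-fold on day 4 (0.0362 and 0.0148). SERPINC1 was above background on 13 of 24 arrays. The day 4 calls of TTR and SERPINC1 were lost with array position as a block. Normexp background correction and omission of the arrays of scan day 1 each ended them too. CPS1, a urea cycle enzyme of liver and small intestine, gave different calls by probe on day 4. By its brightest probe the excess over control was at least 5.62-fold for 6.7 Gy and at least 2.23-fold for 7.4 Gy without passing the test (limma adjusted p = 0.0506 and 0.253), and the fall from day 4 to day 12 was 5.34-fold (0.0286). The call of that fall was lost with normexp background correction, with the methods' t-test and without the arrays of scan day 1. By its second probe, also not above background in any control, the excess was at least 4.82-fold and passed the test at 6.7 Gy (limma adjusted p = 0.0324), and was at least 2.92-fold without passing it at 7.4 Gy (0.0503). The brightest probe of AFP, the fetal counterpart of albumin, was above background on 2 of 24 arrays, both of day 12, and was called higher on day 12 than on day 4 (log2 1.77, limma adjusted p = 0.000514). With normexp background correction that call was lost.

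Of 9 tested transcription factors that set intestinal identity, 2 fell at 6.7 Gy and 3 at 7.4 Gy on day 4, where 1.89% and 3.99% of all genes were called lower, and none rose. Their median log2 change was -0.54 and -0.65. CDX2, a factor of intestinal epithelium in small bowel and colon, fell 2.31-fold and 2.44-fold (limma adjusted p = 0.0116 and 0.00346). HNF4G, a nuclear receptor of enterocytes, fell 2.13-fold and 3.32-fold (limma adjusted p = 0.0273 and 0.000647). HNF4A, which drives apolipoprotein and FABP genes in liver and gut, changed by -0.54 and -0.92 (limma adjusted p = 0.0289 and 0.000415), under the 2-fold threshold. With spike-in scaling CDX2 and HNF4G were not called at 6.7 Gy.

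The mature colonocyte genes that fell furthest on day 4 were CA1, a carbonic anhydrase of surface cells, at 66.4-fold and 176-fold (limma adjusted p = 0.00129 and 5.91e-05), and CHP2, PCK1 and TMIGD1, at 10.2-, 16.4- and 17.8-fold at 6.7 Gy and 87.1-, 53.0- and 32.0-fold at 7.4 Gy. With array position as a block, the calls of CA1 at 7.4 Gy, PCK1 at 6.7 Gy and TMIGD1 at both doses were lost. Between days 4 and 12, 11 of the 15 rose, as FABP1 did, and none fell. Over the same days 4.13% of all genes were called higher and 3.51% lower.

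Markers of other small bowel cells were split. Of 5 tested hormone genes, GIP, the incretin of duodenal K cells, fell 5.43-fold and 14.1-fold on day 4 (limma adjusted p = 0.0148 and 0.000286) and MLN, motilin, fell 2.04-fold at 7.4 Gy (0.0176). Of 5 tested Paneth cell genes, 2 rose at 6.7 Gy and 3 at 7.4 Gy on day 4. Among all genes 2.36% and 4.24% were called higher there, and 1.89% and 3.99% lower. DEFA6, a defensin that defines Paneth cells, rose 44.3-fold at 7.4 Gy (limma adjusted p = 0.0195). MMP7, which activates defensins in mice, was not above background in any control and rose at least 4.63-fold and 17.3-fold (0.0279 and 0.000815). PLA2G2A rose 3.42-fold at 6.7 Gy (0.0392) and lysozyme, LYZ, rose 2.15-fold at 7.4 Gy (0.0445). Array position as a block ended the calls of MLN, DEFA6, PLA2G2A and LYZ, and that of MMP7 at 6.7 Gy.

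On day 4, 1.89% and 3.99% of all genes were called lower at 6.7 and 7.4 Gy, and 2.36% and 4.24% higher. Of 9 general epithelial genes, 1 fell at 6.7 Gy and 3 fell at 7.4 Gy on day 4. KRT20 was 2.52-fold and 3.01-fold lower (limma adjusted p = 0.00137 and 9.66e-05), and VIL1 and CLDN7 were 3.11-fold and 2.17-fold lower at 7.4 Gy. Genes of pancreas acini gave 2 calls of 8, both higher at 7.4 Gy on day 4 (PRSS1 5.91-fold and CTRB1 2.63-fold), and CPB1 rose 2.90-fold from day 4 to day 12. Of 6 stomach genes, TFF1 rose 20.8-fold and 21.2-fold on day 4 (limma adjusted p = 0.00817 and 0.0033) and fell 6.60-fold by day 12 (0.0209), and TFF2 fell 3.56-fold over the same days. The second PRSS1 probe was not called at 7.4 Gy (log2 3.15, limma adjusted p = 0.11). The 7.4-Gy calls of PRSS1 and TFF1 were lost with array position as a block. Those of VIL1 and CLDN7 were lost once array position and scan day both entered the fit, and that of CLDN7 also with spike-in scaling. Of 10 leukocyte genes none was called on day 4 or 12 and 1, PTPRC, was called lower on day 7, 2.89-fold and 2.92-fold. On day 7, 0.223% and 0.29% of all genes were called lower. The PTPRC calls were lost under 11 and 6 of 14 settings and under 15 and 5 of 24 fits with 1 array left out.

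**Figure D4:**
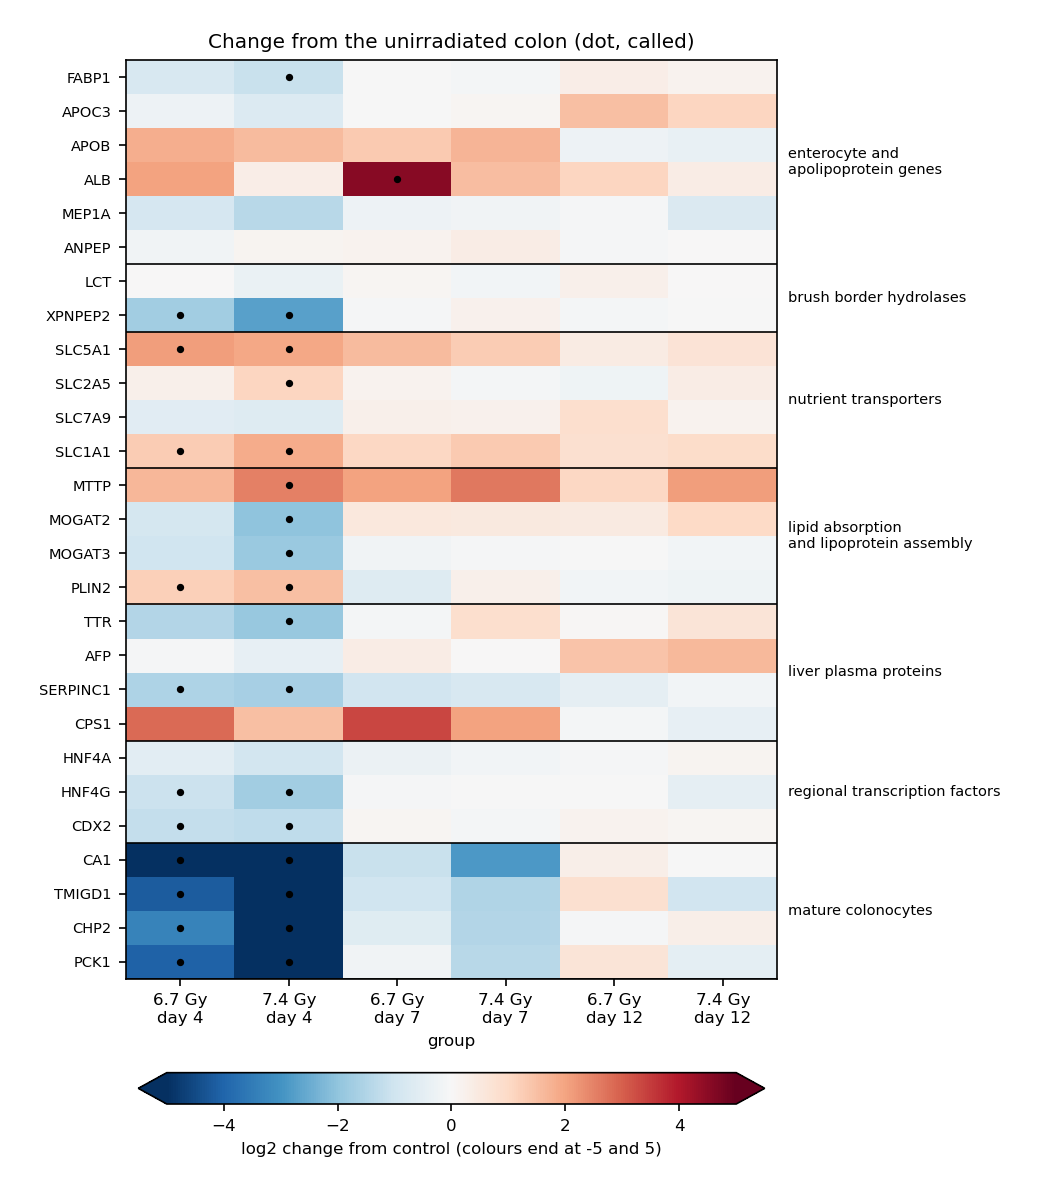
Log2 change from the unirradiated controls as colour (red higher, blue lower, colours ending at -5 and 5) for the 6 tested genes and for related small bowel, liver, transcription factor and colonocyte genes (rows) in the 6 irradiated groups (columns). Dots mark calls at an adjusted p under 0.05 and at least 2-fold; SLC5A1, SLC1A1 and PLIN2 are higher and XPNPEP2, CDX2 and CA1 lower at both doses on day 4.

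For each gene, the genes with the most similar levels were sought among 11506 genes above background on at least 12 arrays. The points are 24 arrays that share group and batch, so the correlations are descriptions. FABP1 was most like SULT1A2 (r = 0.94, rho = 0.92) and SIPA1L3 (r = 0.93, rho = 0.85), and within groups, as deviations from the group means, r was 0.79 and 0.71. APOC3 was most like ESPNL (r = 0.90, rho = 0.84, within groups 0.81) and ABCC2 (0.87, 0.65 and 0.41). MEP1A was most like a gene listed as 3-Mar, a symbol in the form of a date (r = 0.86, rho = 0.91, within groups 0.78), and SCIN (0.83, 0.81 and 0.74). ALB was most like NOXO1 (0.75, 0.81 and 0.71) and CDK5RAP3 (0.69, 0.70 and 0.58). APOB was most like AAGAB (0.79, 0.83 and 0.60) and OSGEPL1 (0.77, 0.78 and 0.66). ANPEP was most like PRX (0.65, 0.65 and 0.76) and ADAMTS6 (0.63, 0.65 and 0.67).

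Among themselves the 6 genes were less alike. The highest correlation was that of APOC3 and FABP1 (r = 0.68, within groups 0.29), followed by FABP1 and MEP1A (0.58, within groups 0.30). APOB and APOC3 ran in opposite directions over all arrays (r = -0.50), and within groups their r was -0.07. ALB and APOB gave 0.36 over all arrays and 0.28 within groups.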

How the data were processed

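Colon RNA of 24 animals was labelled with Cy3 and hybridized to 1-colour Agilent rhesus arrays. The authors extracted the deposited intensity values with Feature Extraction 11.0.1.1, per the file headers, with background subtracted and without normalization between arrays. A table of log2 values that the authors deposited, in which each array was shifted and each probe centred, served as an alternative. Control spots and outlier spots (24 to 712 per array) were left out, and the log2 intensity minus the 75th percentile of the array was analysed. Of 43603 probes, 38220 were well above background on at least 2 arrays and 38200 could be fitted. The brightest of several probes stood for a gene.

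Group means were estimated with limma 3.58.1 (R 4.3.3) in a single fit of the 24 arrays, with two-sided tests and Benjamini-Hochberg adjustment across probes. A call needed an adjusted p under 0.05 and at least a 2-fold change. On data simulated for 7.4 Gy on day 4, calls were checked against known changes. The members and lists were chosen with earlier results of these data known. Beyond the members, up to 4 called genes per list were named by size of change, plus 8 defining genes; some genes that the rule names are counted in their lists and not reported here. Figures were drawn with matplotlib 3.10.9. The number of arrays limits precision.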

Additional observations from a re-analysis of the deposited data

Results flagged for a closer look

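Between days, 4 genes differed over both doses past the threshold. APOB was lower on day 12 than on day 4 (log2 -2.00, limma adjusted p = 0.00664), and APOC3 and FABP1 were higher (log2 1.76 and 1.21, limma adjusted p = 5.33e-05 and 0.000432). These differences do not use the controls, but the day 4 arrays were part of the comparisons that chose the genes. ALB was higher on day 7 than on day 4 by log2 1.88, a description, since day 7 chose the gene. It was 1.41 with slide as a block and 1.41 without the arrays of scan day 1, and no longer called in either, nor with the methods' t-test or the median over probes. Of 30 sets of 4 animals of a group tested for a sample far from the others, none was flagged.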

How the results depend on the processing

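Of 2568 values of the 6 genes under alternatives, 2530 kept their side of the threshold, 17 lost a call and 21 gained one. The sign changed in 99, and none of these was called under either setting. FABP1 and APOC3 on day 12 against day 4 kept their calls under all 38 alternatives, APOB under 37. The count of genes called on day 4 at 6.7 Gy (0) became 1 with spike-in scaling, with the filter at 12 arrays and with the median over probes, and 0 to 1 when an array was left out. The count at 7.4 Gy (1) became 2 with the filter at 12 arrays and with only the groups compared, 0 with the methods' t-test, with array position as a block and with scan day and array position as blocks (chosen after seeing the data), and 0 to 3 when an array was left out. It was 0 without 7.4 Gy day 4 replicate 3 and 3 without 7.4 Gy day 7 replicate 3. The day 7 count at 6.7 Gy (1, ALB) became 0 with the methods' t-test, only the groups compared, the median over probes and without the arrays of scan day 1 (chosen after seeing the data), and 0 to 1 when an array was left out; control replicate 2 and 6.7 Gy day 7 replicates 1 and 4 each ended it. The day 12 count at 6.7 Gy (0) became 1 with spike-in scaling. The count for day 7 against day 4 (1) became 0 with the methods' t-test, slide as a block and the median over probes, and 1 to 2 when an array was left out. It was 1 without the arrays of scan day 1 too, where FABP1 was called and ALB was not. The cause of these changes was not tested.

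Arrays with the same replicate number did not deviate together (median r = 0.0038 over 62 pairs, against -0.0025 over 182 other pairs). With the replicate number as a block, the counts stayed at 0 and 1 on day 4, 1 and 0 on day 7, 0 on day 12 at both doses, and 3 for day 12 against day 4. Array position as a block gave no value for days 7 and 12 against control or between days. Dim probes limit, among others, APOB, ALB, MTTP, CPS1, MMP7 and AFP, where 3 or more of 4 controls were not above background.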

Other observations

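A probe described as FABP1 in the array annotation but without a gene symbol, and so outside the list, had a log2 signal of -0.82 ± 0.37 (SD, n = 4) in controls. On day 4 it was -2.55 ± 0.65 (n = 4) at 6.7 Gy and -2.72 ± 0.70 (n = 4) at 7.4 Gy. These were log2 changes of -1.73 and -1.90 (limma adjusted p = 0.00542 and 0.00102), both called, while the FABP1 probe with a symbol was called at 7.4 Gy only. From day 4 to day 12 it rose by 1.42 (adjusted p = 0.00235, limma). This probe was chosen after its values were seen.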
